A study of Rattus norvegicus with 28 samples.

Results

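Primary rat hepatocytes were exposed for 24 h to 10 nM TCDF (2,3,7,8-tetrachlorodibenzofuran), and their RNA was compared with RNA of cells from the same rat that had received only the solvent DMSO. The measurements are the 4 arrays labelled TCDF 10 nM out of 28 in the study: rats A and B, each in both dye orientations. The other groups set beside them are TCDF 0.1 nM, PeCDF 2 nM (2,3,4,7,8-pentachlorodibenzofuran), TCDD 1 nM (2,3,7,8-tetrachlorodibenzo-p-dioxin) and untreated cells, each with 4 arrays of the same 2 rats against DMSO. The remaining groups, TCDD 0.01 nM and PeCDF 0.02 nM, have the same design. They entered the fit of all 7 groups that gives the errors and calls, and their own values are not described. All cells came from adult female Sprague-Dawley rats and were kept on Matrigel for 48 h with insulin, transferrin, selenium and 0.1 uM dexamethasone before exposure. Compounds and solvent control were at 0.1% DMSO, untreated cells had none, and RNA of 3 dishes was pooled per rat. It is not stated whether all arrays of a rat used the same DMSO RNA.

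TCDF is a ligand of the aryl hydrocarbon receptor (AHR), a transcription factor that waits in the cytosol in a complex with the chaperone HSP90 and its co-chaperones. Once a ligand is bound, AHR enters the nucleus, pairs with ARNT and binds response elements with the core GCGTG. Its best known targets, together called the AHR battery, encode enzymes that oxidise and conjugate foreign compounds, and in liver AHR ligands are also known to change genes of lipid and glucose metabolism.

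The values below are log2 ratios of TCDF 10 nM over DMSO. The 2 orientations of a rat were averaged, so that each mean rests on n = 2 rats, and errors are standard errors (SE) from the limma fit. That fit estimates the spread of a gene over 14 ratios of all 7 groups, so an error is not the scatter of these 2 rats alone. A gene was called where its p, adjusted over all genes after Benjamini and Hochberg, was under 0.05. Of 34807 genes tested, 826 were called (2.37%): 388 were higher (1.11%) and 438 lower (1.26%). Of the 15173 tested genes with a symbol, 241 were called higher and 256 lower. Called genes were brighter than all genes tested, with median log2 intensities of 9.77 and 6.73. The gene lists below were not matched for brightness, so the shares over all genes are a rough base for them. The changes were mostly small, with a median log2 ratio of 0.27 among the higher genes and of -0.35 among the lower ones, and 9 genes exceeded a 2-fold change in each direction. In called genes the 2 orientations of a rat differed by a median of 0.09 and the 2 rats by 0.08 (log2), beside a median change of 0.30. A call favours genes whose change is large beside their spread. Over all genes tested the same medians were 0.08, 0.06 and 0.04. With Agilent's deposited log ratio in place of the values used here, 111 genes were higher and 309 lower. With the rat within a reading session as a block, chosen after seeing the data, 1355 genes were called. Leaving out rat A left 64 calls (15 higher, 49 lower) and leaving out rat B 260 (75 higher, 185 lower). Leaving out a rat means dropping its TCDF 10 nM ratio and keeping the rat in the other groups, so that the single ratio left is assumed to vary as those groups do. Below, a call is said to hold with either rat when it passed both ways.

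**Figure D1:**
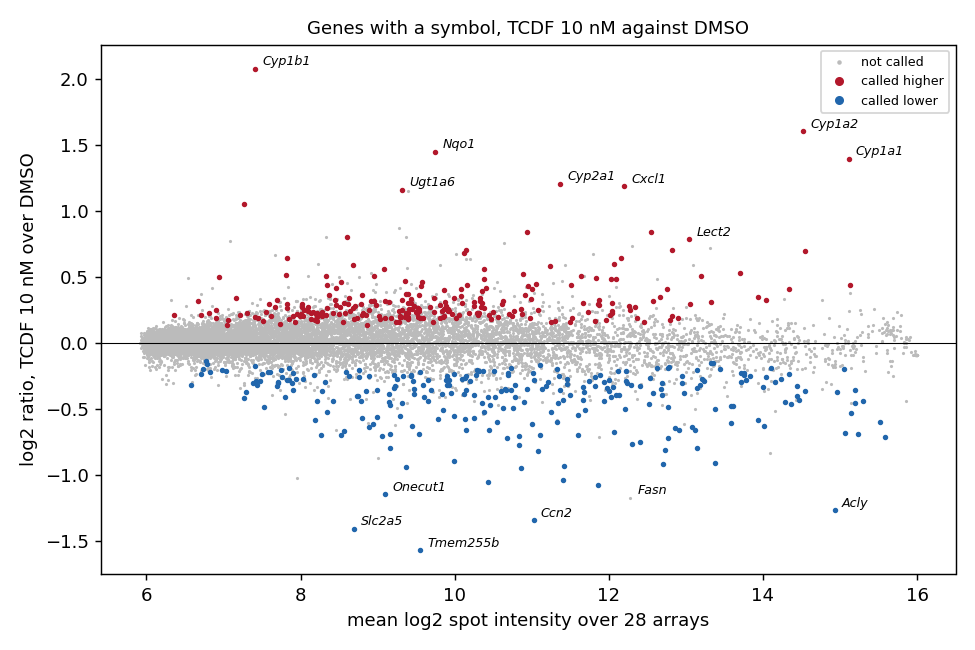
Log2 ratio of TCDF 10 nM over DMSO (vertical axis) against the mean log2 spot intensity over 28 arrays (horizontal axis) for the tested genes with a symbol; red points were called higher, blue points lower and grey points were not called. Cyp1b1 stands highest at 2.07 and Tmem255b lowest at -1.57, and Fasn, at -1.17, was not called.

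The labelled cell type was checked on marker genes. Of 28 hepatocyte markers all were measured, and 13 of them were saturated on at least 1 of the 4 arrays, with Alb (albumin) and Tf (transferrin) saturated in both channels throughout. The summed signal of TCDF 10 nM cells minus that of DMSO cells, in log2 on the 4 arrays, ranged from -0.15 to 0.01 for 21 Kupffer cell and leukocyte markers, from -0.18 to -0.05 for 18 stellate cell and fibroblast markers, from -0.13 to 0.12 for 13 endothelial markers and from -0.19 to -0.10 for 16 bile duct markers. A single gene was called in each list except the endothelial, beside 2.37% of all genes. Cd14, a receptor for bacterial lipopolysaccharide, was higher (0.68 ± 0.15), and Vim, vimentin (-0.47 ± 0.10), and Anxa13 (-0.94 ± 0.08) were lower. The calls of Cd14 and Vim were lost with Agilent's ratio and when either rat was left out. The part of these cells in the results was not tested. No summed value is given for the hepatocyte list because of its saturated spots. In RNA of whole cultures, fewer cells of a type and less RNA per cell cannot be told apart.

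The promoters of AHR battery genes that were called higher and held the response element core are shown here. Binding was not measured. Each runs from 250 bases before to 50 bases after the gene's start, 5′ to 3′ on the strand of the gene, as given by RefSeq for the GRCr8 build. Capitals mark GCGTG or its reverse complement CACGC, which was the only motif searched.
Cyp1b1: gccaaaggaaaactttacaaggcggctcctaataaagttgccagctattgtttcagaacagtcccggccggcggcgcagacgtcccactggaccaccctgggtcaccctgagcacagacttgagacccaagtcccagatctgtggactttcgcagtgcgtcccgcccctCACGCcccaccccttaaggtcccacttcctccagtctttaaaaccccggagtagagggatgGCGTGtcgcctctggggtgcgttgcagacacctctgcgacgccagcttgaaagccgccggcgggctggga
Nqo1: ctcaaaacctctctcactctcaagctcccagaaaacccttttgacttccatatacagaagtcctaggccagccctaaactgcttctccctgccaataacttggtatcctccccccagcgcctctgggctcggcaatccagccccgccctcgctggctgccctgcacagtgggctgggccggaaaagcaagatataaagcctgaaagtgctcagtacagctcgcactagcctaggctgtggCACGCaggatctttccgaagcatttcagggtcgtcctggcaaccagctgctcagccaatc
Ugt1a6: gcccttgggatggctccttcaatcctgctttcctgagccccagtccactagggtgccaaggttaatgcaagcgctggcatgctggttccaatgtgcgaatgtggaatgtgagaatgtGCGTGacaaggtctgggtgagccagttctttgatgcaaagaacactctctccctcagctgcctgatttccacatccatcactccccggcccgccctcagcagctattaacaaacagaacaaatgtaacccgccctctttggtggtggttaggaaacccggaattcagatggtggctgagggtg
Ugdh: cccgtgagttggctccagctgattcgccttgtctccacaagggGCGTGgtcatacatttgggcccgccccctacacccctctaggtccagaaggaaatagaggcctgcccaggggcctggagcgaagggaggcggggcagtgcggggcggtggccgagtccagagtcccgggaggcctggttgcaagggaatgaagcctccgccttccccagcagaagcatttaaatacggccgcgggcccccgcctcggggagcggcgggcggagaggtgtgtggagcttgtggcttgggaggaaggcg
The Cyp1b1 window lies at chr6:21094315-21094614 (plus strand), that of Nqo1 at chr19:52220218-52220517 (minus strand), that of Ugt1a6 at chr9:96194768-96195067 (plus strand) and that of Ugdh at chr14:43202268-43202567 (plus strand). Cyp1b1 had 2 matches and the other 3 genes 1 each, whereas the windows of Cyp1a2 and Nfe2l2 had none. No window was available for Cyp1a1. Among battery genes that were not called, Slc7a5 had 3 matches, Gsta2 2, Tiparp 1, and Xdh and Cyp2s1 none. Over all tested genes with a symbol and a window, 41.7% held the core (5046 of 12106). The share was 52.8% among genes called higher (102 of 193), whose windows had a median GC content of 61.0% against 58.3% over all windows, and 44.0% among genes called lower (92 of 209), with a median GC content of 59.0%. Among the 20 largest increases, 5 of 15 genes with a window held the core, and among the 20 largest decreases 6 of 15. A match describes these letters only, and response elements farther away were not searched.

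Some genes of the AHR battery rose with TCDF 10 nM, among them all 3 cytochromes of family 1. Of 14 listed genes 13 were measured and 7 were called higher, beside 1.11% of all genes, and none was called lower. Of genes with a symbol 241 of 15173 were called higher. The median log2 ratio of the 13 was 0.80, against 0.00 over all genes.

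Cyp1b1, a cytochrome that oxidises oestrogens and aromatic hydrocarbons, had log2 ratios of 2.45 and 1.76 in rat A and of 2.01 and 2.08 in rat B. This was a 4.21-fold increase (2.07 ± 0.15, adjusted p = 0.000199, limma). Another probe of Cyp1b1 gave 0.33. Cyp1b1 was dim on these arrays, and its value depended on the background correction: it was 3.00 with Agilent's deposited log ratio and 1.27 with no correction. Cyp1a1, the classical AHR target, had log2 ratios of 2.08 and 0.92 in rat A, and rat B lay between these. Its test channel was saturated on all 4 arrays, so that only a bound can be given: it was at least 2.62-fold higher (adjusted p = 0.000629). Cyp1a2, which oxidises caffeine, had 1.62 and 0.97 in rat A and 1.82 and 2.01 in rat B (1.60 ± 0.12), with 3 of 4 test channels saturated. A less bright probe of Cyp1a2 that was not saturated gave a mean of 2.48, with 4 arrays between 2.36 and 2.60. In untreated cells against DMSO the log2 ratios were -0.05 for Cyp1b1, 0.06 for Cyp1a1 and 0.06 for Cyp1a2. The calls of the 3 cytochromes held with either rat.

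Among the other battery genes, 3 enzymes and a transcription factor rose. Nqo1, a quinone reductase, had log2 ratios of 1.42 and 1.42 in rat A and of 1.52 and 1.42 in rat B, a 2.72-fold increase (1.44 ± 0.18, adjusted p = 0.00435). Ugt1a6, which joins glucuronic acid to phenols, had 1.18 and 1.09 in rat A and 1.27 and 1.11 in rat B, a 2.23-fold increase (1.16 ± 0.18). Ugdh, which makes the UDP-glucuronic acid that Ugt enzymes use, rose 1.40-fold (0.49 ± 0.09), with arrays between 0.43 and 0.54. Nfe2l2, the oxidant-response regulator NRF2, rose 1.45-fold (0.53 ± 0.09), with arrays between 0.44 and 0.65. All 4 genes lay close together on their 4 arrays, yet their calls were lost when either rat was left out.

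Aldh3a1, Tiparp and Gsta2 were above 0 on every array and were not called. Aldh3a1, an aldehyde dehydrogenase, had 0.53 and 0.58 in rat A and 1.73 and 1.75 in rat B (1.15 ± 0.36, adjusted p = 0.174). The 2 orientations of a rat differed by at most 0.05, and the 2 rats did not overlap. Tiparp, an ADP-ribosyltransferase that restrains AHR, had 0.75 and 0.76 in rat A and 0.80 and 0.91 in rat B (0.80 ± 0.25, adjusted p = 0.158). Gsta2, a glutathione transferase, had a mean of 0.72 ± 0.23 (adjusted p = 0.18) and was called with the rat as a replicate block (adjusted p = 0.0207). Xdh, Slc7a5 and Cyp2s1 had means of 0.07, 0.05 and -0.03. Of the 9 genes of the receptor complex none was called: Ahr itself had -0.05 ± 0.05, its partner Arnt -0.00 ± 0.04, and the 9 lay between -0.05 and 0.19.

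**Figure D2:**
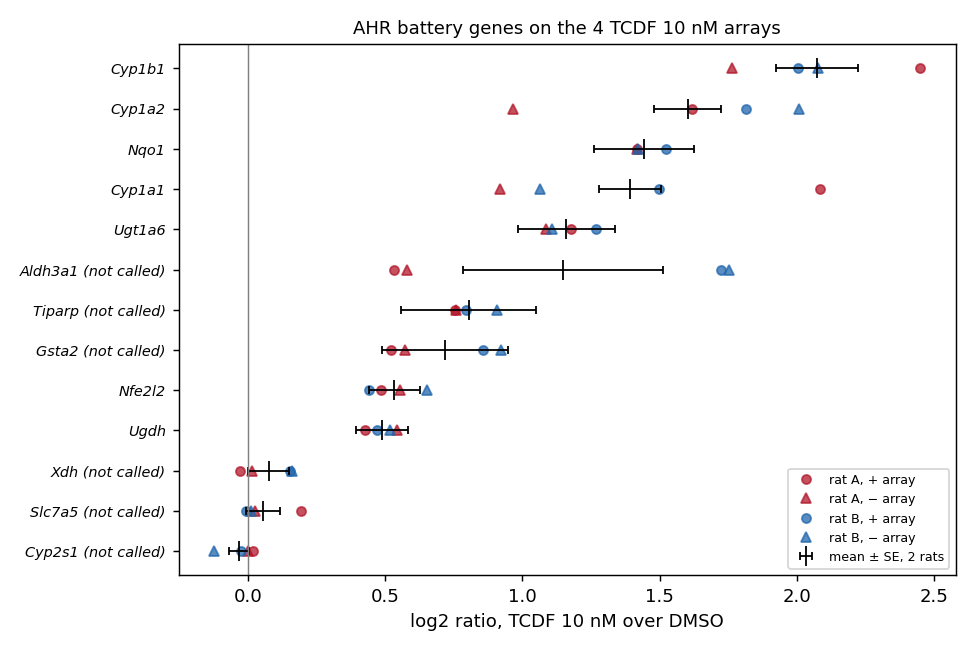
Log2 ratio of TCDF 10 nM over DMSO for the 13 measured AHR battery genes. Circles and triangles are the 2 dye orientations, red rat A and blue rat B. Black bars are the mean of 2 rats ± SE of the limma fit, whose spread is estimated over all 7 groups. Nqo1, Ugt1a6, Nfe2l2 and Ugdh have their 4 arrays close together, whereas Aldh3a1 lies near 0.5 in rat A and near 1.7 in rat B.

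Genes outside the battery were also among the 20 largest increases. Cyp2a1, a cytochrome that hydroxylates testosterone, had log2 ratios of 1.07 and 1.11 in rat A and of 1.30 and 1.34 in rat B, a 2.30-fold increase (1.20 ± 0.21, adjusted p = 0.0163). Cxcl1, a neutrophil attractant, rose 2.28-fold (1.19 ± 0.22), with 1.63 and 1.60 in rat A and 0.76 and 0.76 in rat B. The rats did not overlap for Cxcl1 or Cyp2a1, with rat A higher for Cxcl1 and rat B for Cyp2a1. Lect2, a protein secreted by hepatocytes, rose 1.72-fold (0.79 ± 0.05, adjusted p = 4.92e-05), with 0.79 and 0.72 in rat A and 0.81 and 0.82 in rat B. Ddit4l, an inhibitor of mTOR signalling, rose 1.74-fold (0.80 ± 0.05), Defb1, an antimicrobial defensin, 1.79-fold (0.84 ± 0.07), and Selenbp1, a selenium-binding protein, 1.79-fold (0.84 ± 0.09). The rats did not overlap for Lect2, Ddit4l and Defb1 either, with rat B higher for Lect2 and rat A for Ddit4l and Defb1. Sod2, the mitochondrial superoxide dismutase, rose 1.62-fold (0.69 ± 0.06) and Rsad2, the antiviral protein viperin, 1.63-fold (0.70 ± 0.15). The kinase Riok3 rose 1.56-fold, the epithelial transcription factor Ehf 1.56-fold, the electron carrier Cyb5a 1.52-fold and the bradykinin receptor Bdkrb2 1.51-fold. Another probe gave 0.12 for Rsad2 and -0.06 for Bdkrb2. The call of Rsad2 was lost with Agilent's ratio and with no background correction. Of these 12 genes, Lect2, Ddit4l, Defb1 and Sod2 held with either rat. Selenbp1, Cxcl1 and Riok3 lost the call without rat A, and the other 5 lost it when either rat was left out.

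NRF2 targets, which answer oxidant stress, had 3 of 23 genes called higher, beside 1.11% of all genes, and none lower, with a median of 0.13. Txnrd1, a thioredoxin reductase, rose 1.43-fold (0.52 ± 0.06), Akr7a3, an aldehyde reductase, 1.42-fold (0.51 ± 0.07) and Srxn1, a sulfiredoxin, 1.16-fold (0.22 ± 0.04). Txnrd1 and Akr7a3 lost the call without rat A, and Srxn1 when either rat was left out. Srxn1 also lost the call with Agilent's ratio. Gclm, a subunit of the enzyme that starts glutathione synthesis, had 0.24 (adjusted p = 0.0614). The EGF receptor and its ligands had no call among 10 measured genes of the list, with 0.77 for Areg (adjusted p = 0.139) and 0.49 for Ereg (adjusted p = 0.249). With Agilent's ratio Areg had 1.41 and Ereg 1.49, and Ereg was called (adjusted p = 0.0352).

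Tmem255b, a little studied membrane protein, had log2 ratios of -1.59 and -1.23 in rat A and of -1.80 and -1.64 in rat B, 2.96-fold lower (-1.57 ± 0.13, adjusted p = 0.00034). Ccn2, a matrix protein known as a target of the YAP coactivator, was 2.53-fold lower (-1.34 ± 0.14). It was the only one called of 21 measured YAP targets and actin genes, beside 2.37% of all genes. Onecut1, the liver transcription factor HNF6, had -1.27 and -1.11 in rat A and -1.04 and -1.16 in rat B, 2.21-fold lower (-1.14 ± 0.16, adjusted p = 0.00761). Emp1, an epithelial membrane protein, was 2.10-fold lower (-1.07 ± 0.09), though another probe of Emp1 gave -0.14. Zfp354a, a zinc finger protein, had -0.93 ± 0.09, Anxa13, an annexin of epithelial cells, -0.94 ± 0.08, and Slc25a47, a mitochondrial carrier of liver, -0.91 ± 0.09. The calls of Tmem255b, Ccn2, Emp1, Anxa13 and Slc25a47 held with either rat, Zfp354a lost its call without rat A, and Onecut1 when either rat was left out.

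**Figure D3:**
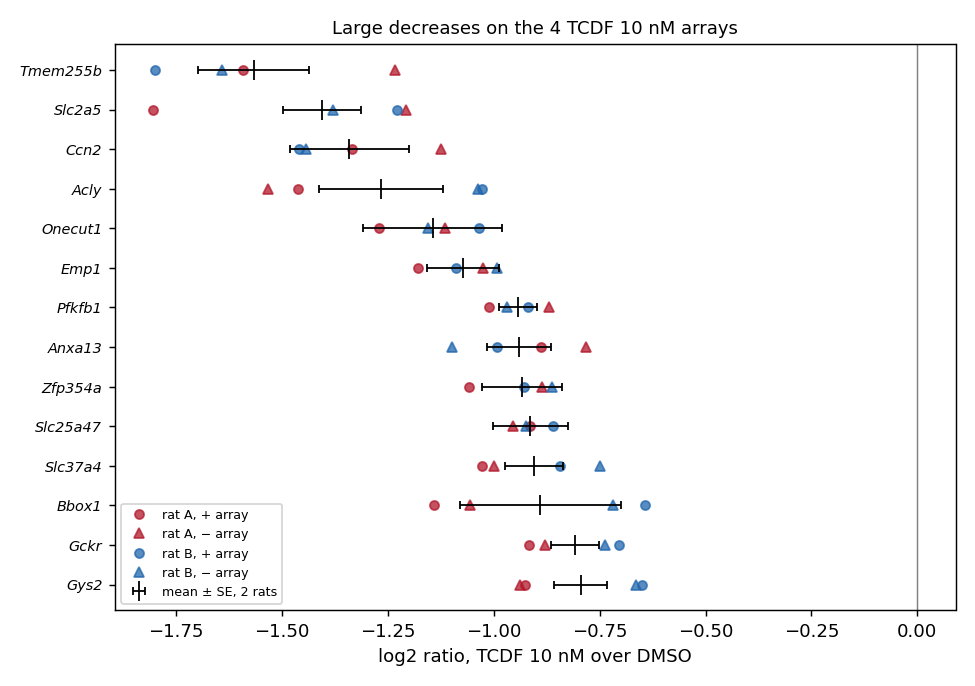
Log2 ratio of TCDF 10 nM over DMSO for 14 of the 20 largest decreases, those described in the text. Circles and triangles are the 2 dye orientations, red rat A and blue rat B. Black bars are the mean of 2 rats ± SE of the limma fit, whose spread is estimated over all 7 groups. Every point lies below 0. Acly, Bbox1, Gys2 and Gckr were among the genes lower in rat A than in rat B on both arrays. Tmem255b, Ccn2 and Anxa13 were among those lower in rat B on both arrays.

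Several genes of fructose and glucose use fell. Of 19 genes of glycolysis and glucose uptake 7 were called lower and none higher, with a median of -0.19. Of all genes 1.26% were called lower, and of genes with a symbol 256 of 15173. Slc2a5, the fructose transporter GLUT5, had log2 ratios of -1.80 and -1.21 in rat A and of -1.23 and -1.38 in rat B, 2.65-fold lower (-1.41 ± 0.09, adjusted p = 0.000109). Pfkfb1, the liver enzyme that sets the level of fructose 2,6-bisphosphate, had -1.01 and -0.87 in rat A and -0.92 and -0.97 in rat B, 1.92-fold lower (-0.94 ± 0.04, adjusted p = 1.46e-05). Gckr, a regulatory protein of glucose use in liver, was 1.75-fold lower (-0.81 ± 0.06). It had -0.92 and -0.88 in rat A and -0.70 and -0.74 in rat B, without overlap of the rats. The call of Eno1, an enolase singled out after its values were seen, did not show on all arrays: it had 0.02 and -0.53 in rat A and 0.02 and -0.31 in rat B, so that 1 dye orientation carried its mean of -0.20, and the call was lost with Agilent's ratio and when either rat was left out. Slc2a5, Pfkfb1 and Gckr held with either rat.

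Several genes of glucose release and glycogen fell as well. Of 15 measured genes of gluconeogenesis and glycogen 6 were called lower, beside 1.26% of all genes, and none higher, with a median of -0.15. Slc37a4, which carries glucose 6-phosphate into the endoplasmic reticulum, lay between -1.03 and -0.75 on the 4 arrays (-0.90 ± 0.07, adjusted p = 0.000261). Gys2, the liver glycogen synthase, had -0.93 and -0.94 in rat A and -0.65 and -0.66 in rat B (-0.80 ± 0.06), and the rats did not overlap. G6pc1, which frees glucose from glucose 6-phosphate, had -0.70 ± 0.12, though another probe of G6pc1 gave -0.03. Fbp1, a fructose bisphosphatase, had -0.58 ± 0.05, and Pc, pyruvate carboxylase, -0.52 ± 0.09. Pck1, the cytosolic enzyme that makes phosphoenolpyruvate, had -0.09 (adjusted p = 0.193). Slc37a4, Gys2 and Fbp1 held with either rat, whereas G6pc1 and Pc lost the call when either rat was left out.

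Some genes of lipid synthesis and of lipid oxidation fell. Of 21 measured genes of fatty acid and triglyceride synthesis 4 were called lower, beside 1.26% of all genes, and none higher, with a median of -0.28. Acly, which supplies acetyl-CoA in the cytosol, had log2 ratios of -1.46 and -1.53 in rat A and of -1.03 and -1.04 in rat B, 2.40-fold lower (-1.27 ± 0.15, adjusted p = 0.00263). Acaca, acetyl-CoA carboxylase, was 1.65-fold lower (-0.72 ± 0.06), though another probe of Acaca gave 0.03. Scd, a stearoyl-CoA desaturase, had -0.69 ± 0.08, with the DMSO channel saturated on 2 of 4 arrays, so that the decrease may be understated. The regulator Srebf1 was 1.25-fold lower (-0.32 ± 0.07), and another probe of Srebf1 gave -0.15. The call of Srebf1 was lost with Agilent's ratio. Fasn, the fatty acid synthase, had -1.17 and was not called (adjusted p = 0.0754), although it was with the rat as a replicate block (adjusted p = 0.0059). Acaca held with either rat, Acly and Scd lost the call without rat A, and Srebf1 when either rat was left out.

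Of 28 measured PPARA targets and genes that burn fatty acids 6 were called lower, beside 1.26% of all genes, and none higher, with a median of -0.19. Bbox1, the last enzyme of carnitine synthesis, was 1.85-fold lower (-0.89 ± 0.19, adjusted p = 0.0417) and Angptl4, an inhibitor of lipoprotein lipase, 1.65-fold lower (-0.72 ± 0.09). The call of Bbox1 was lost with Agilent's ratio and with no background correction. The hormone Fgf21 had -0.46 ± 0.06, Bdh1, a ketone body dehydrogenase, -0.35 ± 0.06, and Cpt2, a carnitine palmitoyltransferase, -0.28 ± 0.04. Fgf21 lost the call without rat A, and Bbox1, Angptl4, Bdh1 and Cpt2 when either rat was left out. In cholesterol synthesis and LDL uptake 1 of 25 genes was called, beside 2.37% of all genes: Ebp, a sterol isomerase (-0.46 ± 0.10). The call of Ebp was lost with Agilent's ratio, with no background correction and when either rat was left out.

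Liver-specific functions had scattered decreases. The counts of this paragraph stand beside 1.26% of all genes called lower and 1.11% called higher. Of 24 measured bile acid genes 1 was called lower, Abcb4, which moves phosphatidylcholine into bile (-0.58 ± 0.04, adjusted p = 0.000261), although the median of the list was -0.24. Of 23 coagulation genes 4 were called lower: Klkb1, plasma kallikrein, with -0.70 ± 0.09, Serpina5 with -0.69 ± 0.14, factor XI (F11) with -0.66 ± 0.09, and Vkorc1, the vitamin K reductase that warfarin blocks, with -0.65 ± 0.10. Another probe of Vkorc1 gave -0.03. Of 30 measured cytochromes of families 2, 3 and 4, Cyp2a1 was called higher and 4 lower, with -0.61 ± 0.08 for Cyp4f4 and -0.50 ± 0.05 for Cyp2b3. Of 32 conjugating enzymes 5 were called lower, led by the sulfotransferase Sult2a6 (-0.64 ± 0.09). Of 35 genes of the urea cycle and amino acid catabolism 3 were called lower. Of 30 liver transcription factors 3 were called lower: Onecut1, the pioneer factor Foxa1 (-0.52 ± 0.05) and the xenobiotic receptor PXR (Nr1i2, -0.35 ± 0.05). Abcb4, Cyp2b3 and Foxa1 held with either rat. Klkb1, F11, Cyp4f4 and Sult2a6 lost the call without rat A, and Serpina5, Vkorc1 and Nr1i2 when either rat was left out.

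Iron genes moved both ways. Of 23 genes of heme synthesis and iron handling 3 were called higher and 2 lower, beside 1.11% and 1.26% of all genes. The iron importers Slc11a2 (0.56 ± 0.08) and Tfrc, the transferrin receptor (0.49 ± 0.09), and the iron sensor Ireb2 (0.43 ± 0.09) were higher, whereas Hamp, the iron hormone hepcidin (-0.46 ± 0.09), and Alad, the second enzyme of heme synthesis (-0.39 ± 0.08), were lower. The calls of all 5 were lost when either rat was left out. Ireb2, Hamp and Alad also lost the call with Agilent's ratio, and Hamp with no background correction. Tfrc had 0.50 with TCDF 0.1 nM, 0.66 with PeCDF 2 nM and -0.17 with TCDD 1 nM. The furans and TCDD were read in different sessions, so that compound, dose and session cannot be told apart for Tfrc. No gene was called among 29 cell cycle genes and 17 genes of the IGF axis.

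**Figure D4:**
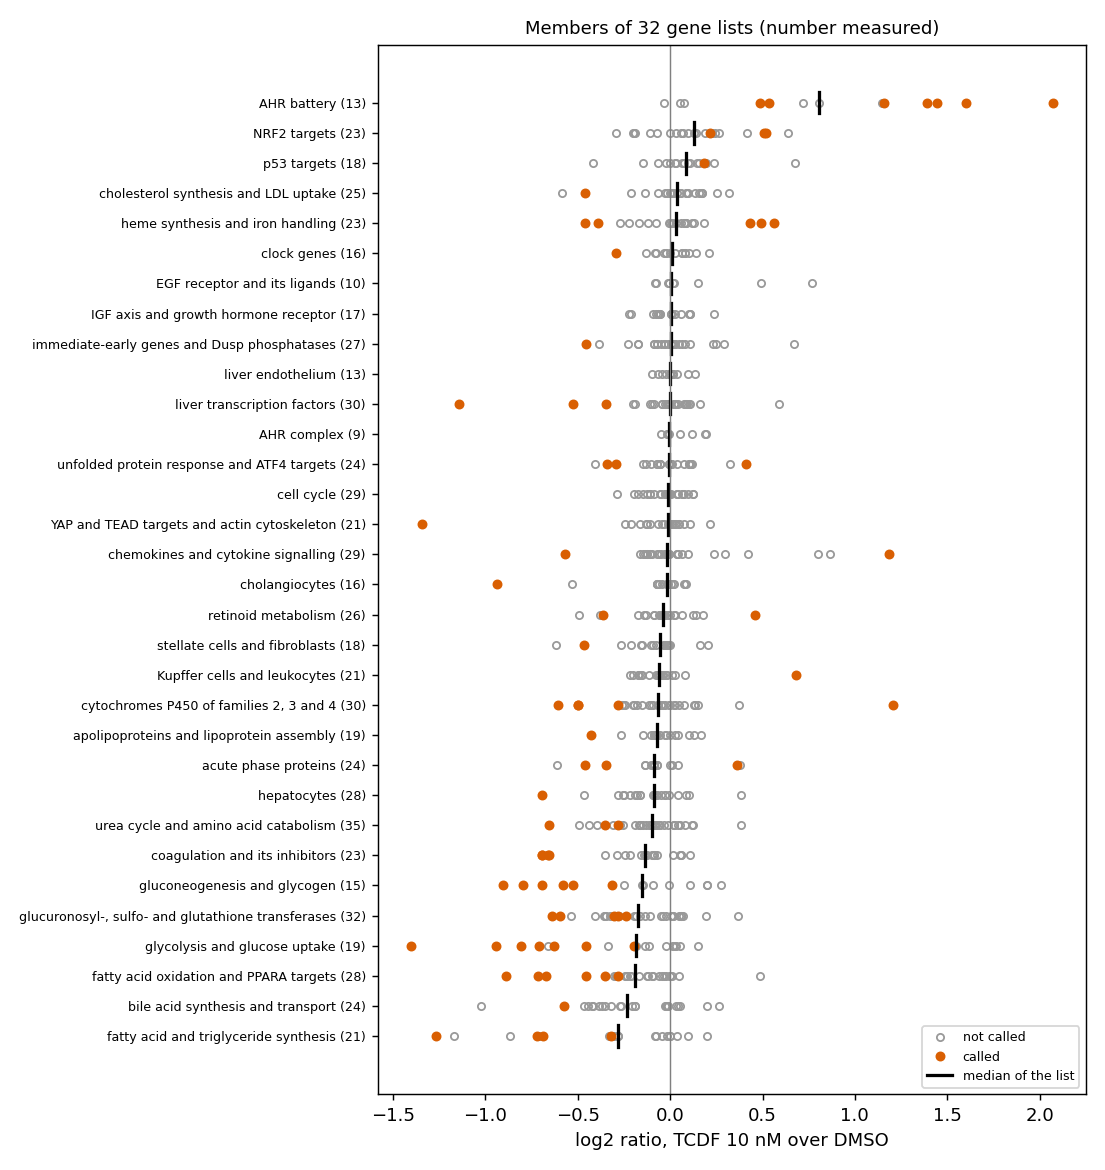
Log2 ratio of TCDF 10 nM over DMSO for the measured members of 32 gene lists (rows, with the number measured); filled points were called, open points were not, and black bars are list medians. The AHR battery has the highest median, 0.80, and fatty acid and triglyceride synthesis the lowest, -0.28. Saturation on at least 1 array affected 17 of 24 acute phase genes and 13 of 28 hepatocyte markers, which limits their ratios and medians.

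The response was then set against the lower dose of the same furan, 100 times less. Against DMSO, TCDF 0.1 nM had 1 call (0.00287% of genes), Cyp1a1, and the difference between the doses was called for 31 genes (0.0891%), 6 higher (0.0172%) and 25 lower (0.0718%) with TCDF 10 nM. Cyp1b1 had 2.07 with TCDF 10 nM and 0.25 with TCDF 0.1 nM, a difference of 1.83 ± 0.21 (adjusted p = 0.0164). Lect2 had 0.79 and 0.16, a difference of 0.62 ± 0.06, and Ddit4l 0.80 and 0.15, a difference of 0.65 ± 0.07, in the same order of doses. Among decreases, Tmem255b differed by -1.41 ± 0.19, Slc2a5 by -1.06 ± 0.13, Zfp354a by -0.99 ± 0.13, Emp1 by -0.92 ± 0.12 and Anxa13 by -0.88 ± 0.11. Nqo1 had 1.44 with TCDF 10 nM and 0.26 with TCDF 0.1 nM, and this difference was not called (adjusted p = 0.278). For Cyp1a1, saturated on 4 arrays of TCDF 10 nM and 3 of TCDF 0.1 nM, the doses could not be compared. The unsaturated probe of Cyp1a2 averaged 2.48 with TCDF 10 nM and 0.74 with TCDF 0.1 nM. Without rat A of TCDF 10 nM no difference was called by limma, and without rat B 57 were. In the fit with both rats 1581 of 34806 genes (4.54%) differed at an unadjusted p under 0.05. That fit had no term for the rat, although deviations of the same rat correlated at 0.555 between these doses. With the rat as a replicate block 40 differences were called.

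TCDF 10 nM and PeCDF 2 nM, a furan with a further chlorine at a lower dose, were read on the same days, which were taken as 1 session. Limma called 0 of 34797 genes between them (0%), and 991 genes had an unadjusted p under 0.05 (2.85%). Cyp1b1 had 2.07 with TCDF 10 nM and 2.78 with PeCDF 2 nM, a difference of -0.70 with a 95% interval from -1.17 to -0.24 that is not adjusted for the number of genes. The differences were -0.17 for Nqo1 (-0.74 to 0.40), 0.06 for Ugt1a6 (-0.50 to 0.61), -0.01 for Acly (-0.47 to 0.45) and -0.37 for Tmem255b (-0.78 to 0.04). The doses were not matched. Without rat B of TCDF 10 nM 23 genes were called, all lower with TCDF 10 nM, and without rat A 0.

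TCDF 10 nM and TCDD 1 nM, the dioxin at a lower dose, differed in 22 genes (0.0632%), 8 higher (0.023%) and 14 lower (0.0402%) with TCDF 10 nM. The scans of these compounds were read in different sessions, so that compound, dose and session cannot be told apart. Ereg, a ligand of the EGF receptor, had 0.49 with TCDF 10 nM and 2.79 with TCDD 1 nM, a difference of -2.30 ± 0.25 (adjusted p = 0.0202, limma). Ereg was dim, with the DMSO channel well above background on 3 of the 4 TCDF 10 nM arrays. Its value with TCDF 10 nM ranged from 0.21 to 1.49 over the alternative ways of processing. Pou3f1, a POU-domain transcription factor, had 0.32 with TCDF 10 nM and 1.69 with TCDD 1 nM, a difference of -1.37 ± 0.11 (adjusted p = 0.00237). Cyp1b1 had 2.07 with TCDF 10 nM and 3.93 with TCDD 1 nM (-1.85 ± 0.21), and Tpbg, a trophoblast glycoprotein, 0.25 and 0.81 in the same order (-0.56 ± 0.07). The decrease of Pfkfb1 was smaller with TCDF 10 nM (-0.94 with TCDF 10 nM and -1.63 with TCDD 1 nM). Nqo1 had 1.44 with TCDF 10 nM and 1.54 with TCDD 1 nM, a difference of -0.10 (95% interval -0.67 to 0.48), and Ugt1a6 1.16 and 0.80, a difference of 0.36 (-0.20 to 0.91). Without rat A of TCDF 10 nM 3 differences were called, and without rat B 39. With the rat as a replicate block 36 were called.

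**Figure D5:**
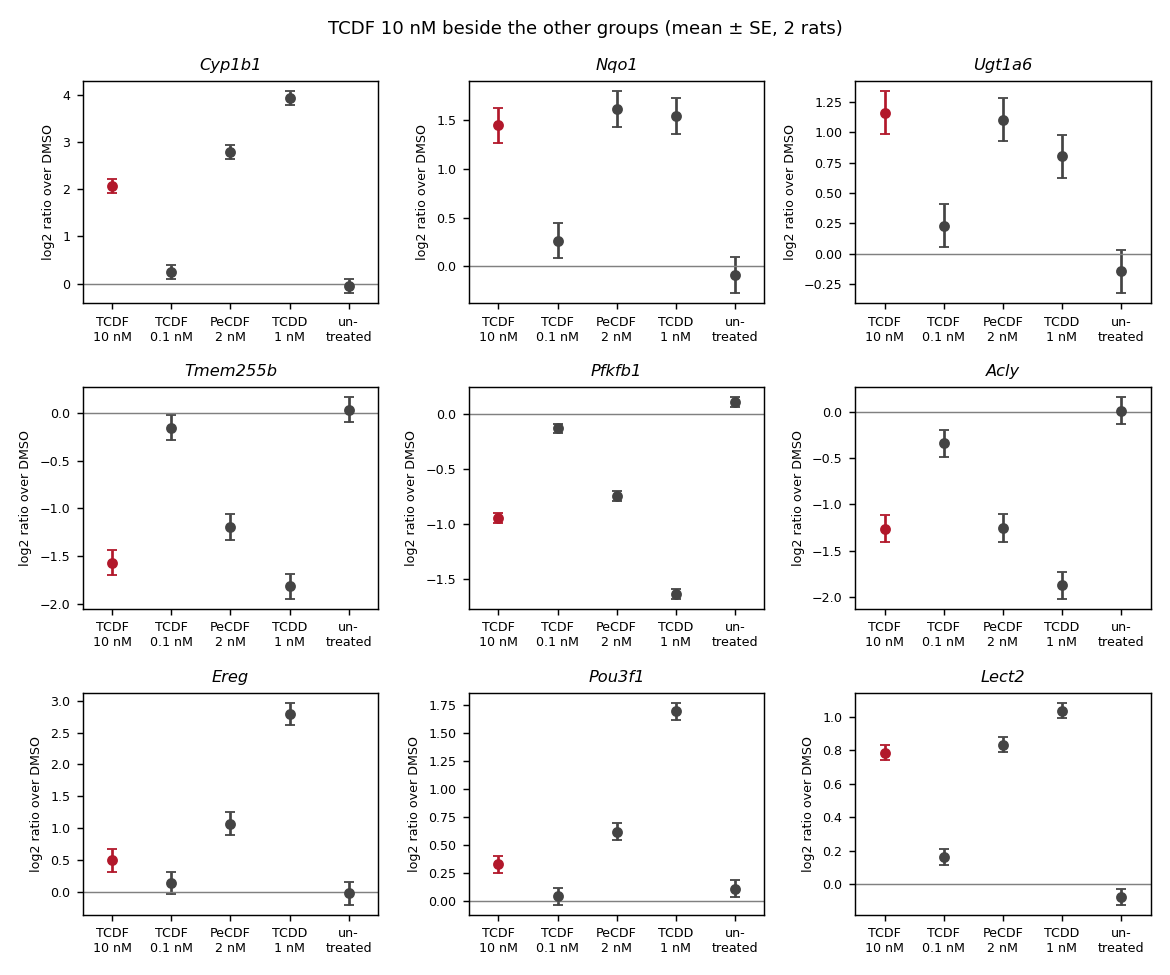
Log2 ratio over DMSO (vertical axes, scaled per gene) of 9 genes in TCDF 10 nM, TCDF 0.1 nM, PeCDF 2 nM, TCDD 1 nM and untreated cells. Points are the mean of 2 rats and bars the SE of the limma fit, whose spread is estimated over all 7 groups. Nqo1 lies between 1.44 and 1.61 in TCDF 10 nM, PeCDF 2 nM and TCDD 1 nM, whereas Ereg is at 0.49 with TCDF 10 nM and at 2.79 with TCDD 1 nM.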

How the data were processed

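Agilent 2-colour arrays compared test RNA with DMSO RNA of the same rat. Per the file headers the authors' scanner files, read with Feature Extraction A.7.5.1 (9.1 per the submitters' processing notes), hold spot signals and backgrounds as intensity. They also hold the deposited log10 ratio of red over green after background was subtracted and dyes were normalized by the authors. The deposited series table holds this log10 ratio turned to test over DMSO (largest difference 4.995e-06).

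The intensities were reprocessed with limma 3.58.1 in R 4.3.3 (data.table package, 1.17.8): normexp background correction (offset 50, which draws ratios of dim spots towards 0), loess within arrays with 2256 control spots at weight 0, and removal of 1067 marked spots (0.0921%). Replicate spots of each probe were averaged, ratios turned to test over DMSO, and the 2 orientations of a rat averaged, giving 14 log2 ratios of 7 groups that were fitted together (empirical Bayes, with prior degrees of freedom of 3.21 beside 7 residual). A value missing in 1 orientation was left missing (941 values, 0.178%). Kept were the 37824 of 41012 probes that stood well above background in the test channel of all 4 arrays of any group, or in 14 or more of the 28 DMSO channels. The brightest probe stood for a gene (34815 genes passed, 15177 with a symbol). RefSeq symbols came for 8057 probes through the accession, 8673 through the gene identifier, 1368 through the symbol and 419 through a synonym, while 22495 probes stayed without a symbol; their genes are counted and not named.

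The bound for Cyp1a1 uses the mean normalized signal of each channel (Aquantile) over both orientations. The rats are the replicates, and their number limits the precision. The file headers date the reading of the scans to 4 days and name no session. Days of the same year were taken here as 1 session. This gave 2 sessions, untreated and TCDD in 1 and the furans in the other. Within a session the reading day coincides with the dye orientation. This reading is not an extraction of RNA.

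Named were the 20 largest increases and 20 largest decreases among called genes with a symbol and 1 sign on 4 arrays, up to 5 each way per difference where the arrays did not overlap, all measured genes of the AHR battery and complex, and, from every other list, up to 5 genes of smallest p. Not all are given in the text, and some results are not reported here. The lists, the rule and the comparisons were chosen with earlier results of these data known. The fit was tested on simulated data before use. The replicate letters mark the same rat in every group, so the rat pairs the samples, but the main fit had no term for the rat. Deviations of the same rat correlated between groups at -0.393 to 0.561, with a median of 0.124. For TCDF 10 nM they correlated at 0.555 with TCDF 0.1 nM, at 0.131 with PeCDF 2 nM and at -0.164 with TCDD 1 nM. Alternatives were Agilent's ratio, the series table, no background correction, no or a stricter filter, every probe, unsaturated probes, marked spots, the rat as a block, single arrays with a dye term, fewer groups, each rat left out and, chosen after seeing the data, the rat within a session as a block.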

Additional observations from a re-analysis of the deposited data

Results flagged for a closer look

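The effect of TCDF 10 nM differed from that of TCDF 0.1 nM in 31 genes and from that of TCDD 1 nM in 22 genes, each by a test of the difference itself. The second comparison also crosses the reading sessions of the scans, which was not tested apart from the compound. Groups of 2 rats are too small to look for a sample that stands apart.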

How the results depend on the processing

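For TCDF 10 nM against DMSO the count of 826 became 420 with Agilent's deposited log ratio and also 420 with the deposited series table (393 genes shared with the 826), 1355 with the rat within a session as a replicate block, 2803 with single arrays and a dye term, 470 with the groups of the same session alone and 23 with the 2 TCDF groups alone; leaving out a rat gave 64 to 260. With the rat as a replicate block it was 957. The 31 differences to TCDF 0.1 nM became 9 with either deposited ratio, 102 with the block within a session, 435 with the dye term, 14 with the session alone and 0 with the 2 TCDF groups alone, a fit with fewer samples; leaving out a rat gave 0 to 57. The 0 differences to PeCDF 2 nM became 22 with the dye term and 0 to 23 without a rat. The 22 differences to TCDD 1 nM became 2 with either deposited ratio, 5 with no background correction, 36 with the rat as a replicate block, 264 with the block within a session and 2523 with the dye term, and leaving out a rat gave 3 to 39. The dye term takes the 4 arrays of a group as more than 2 samples, with a shared correlation within a rat. Of 100 named genes called, 80 kept the call with Agilent's ratio, 73 with the session alone and 17 with the 2 TCDF groups alone. Many also lost it when either rat was left out. None changed sign under these alternatives, although other probes of some genes, such as Acaca (0.03) and Bdkrb2 (-0.06), had the opposite sign. The causes of these changes were not tested. Saturation limits, among others, Cyp1a1, Cyp1a2, Scd, 13 hepatocyte markers, 17 of 24 acute phase genes and 6 of 19 apolipoprotein genes. Dim spots limit Cyp1b1 and Ereg.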

Other observations

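Several called genes lay outside the lists and the naming rule, and were chosen after their values were seen. Srd5a1, a steroid 5-alpha-reductase, had log2 ratios of -0.81 and -0.69 in rat A and of -0.67 and -0.65 in rat B (-0.70 ± 0.09, adjusted p = 0.00375, limma), and another probe of Srd5a1 gave -0.25. Cyp17a1, a steroid hydroxylase, had -0.70 ± 0.08, whereas Hsd17b2, which inactivates oestradiol and testosterone, had 0.44 ± 0.04 (adjusted p = 0.000264). Aqp9, a glycerol channel of hepatocytes, had -0.73 and -0.69 in rat A and -0.64 and -0.73 in rat B (-0.70 ± 0.04, adjusted p = 4.92e-05). Glud1, glutamate dehydrogenase, had -0.68 ± 0.08, and Tkfc, which phosphorylates the glyceraldehyde released from fructose, -0.55 ± 0.06. Cited2, a transcriptional coregulator, had -0.75 ± 0.06 (other probes -0.43 and -0.46), and Cldn1, a tight junction protein, -0.66 ± 0.06. Glrx, a glutaredoxin, had 0.58 ± 0.08, and the stress cytokine Gdf15 0.52 ± 0.07. Hsd17b2, Aqp9, Tkfc, Cited2 and Cldn1 held with either rat left out, whereas Srd5a1, Glud1 and Gdf15 lost the call without rat A, Cyp17a1 without rat B, and Glrx when either was left out.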
